A study of Mus musculus with 33 samples.

Results

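The regions described here are 641 of the 30815 genomic regions in which ChIP-seq reads were counted in a mouse cardiac fibroblast line. They carried Tbx5 signal, and neither Gata4 nor Mef2c signal, in cells that received all 3 factors, and they fell short of the same limit for Tbx5 in cells that received Tbx5 alone. They are called gained Tbx5-only regions below. For each ChIP group the read counts of its libraries were summed and expressed as CPM, counts scaled to a common total over the regions, with all 9 input libraries summed as the background. Enrichment is log2 of (CPM + 5) over (input CPM + 5). A region was taken as bound at an enrichment of log2(1.5) or more, a 1.5-fold excess. The regions were thus selected on 4 measured enrichments (Tbx5, Gata4 and Mef2c in the cells with all 3 factors, Tbx5 alone), which are therefore given as descriptions, with no weight as findings.

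Tbx5 is a T-box transcription factor that binds DNA through its T-box domain and is needed for heart chamber and septum formation. Gata4, a zinc-finger protein, and Mef2c, a MADS-box protein, are its partners in the cocktail that turns fibroblasts toward a cardiomyocyte state. T-box, GATA and MEF2 proteins can bind cardiac enhancers side by side, so a region with Tbx5 signal and no partner signal is one of several patterns that the combined factors can give.

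The groups all came from the same immortalised fibroblast line, made from neonatal Cd-1 mouse heart with the alpha-MHC-GFP genotype and carrying a large T antigen that cre can excise. Cells were infected with retroviruses, kept with sb431542 (an inhibitor of TGF-beta signalling) and xav939 (an inhibitor of Wnt signalling), and harvested unsorted on day 2, with the same number of cells per replicate. The AF cells received Gata4, Mef2c and Tbx5 together and gave 4 Tbx5, 6 Gata4, 4 Mef2c and 6 input libraries. The SF cells received a single factor and gave 3 Tbx5, 4 Gata4 and 3 Mef2c libraries, each from the cells given that factor, with 1 input library for each factor. All groups thus share the line, the T antigen and both inhibitors, and the unsorted cells include any that were not infected. The labels call the libraries biological replicates of a single line, so the spread between them is not a spread between animals.

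The ChIP libraries held 222761 to 2377616 reads in the regions and the inputs 97474 to 301678, so a value from a single input rests on few reads. The fourth Gata4 library of the SF cells stood apart from the other 3 and lay near the inputs (median 35.9 CPM over the gained Tbx5-only regions, against 8.46 to 11.0 CPM in the other 3). It was left out of the sums, and tests were run with and without it. Gata4 libraries 1 and 6 of the AF cells, AF inputs 1 and 3, and AF inputs 2, 4 and 5 differed by less than the sampling noise, and each set was counted as 1 sample in means and tests. Within the AF cells, reads on the 5 chromosome Y regions separated Gata4 libraries 1, 3 and 6 (138 to 209 CPM) from 2, 4 and 5 (1.06 to 25.6 CPM), and the inputs likewise. The Tbx5 libraries of the AF cells are numbers 2 to 5, with 1.72, 11.7, 0.0 and 0.70 CPM on these regions. Tbx5 number 3 thus did not share the high value of Gata4 number 3 (138 CPM). A difference between AF and SF cells and a difference between the batches of cells behind these libraries cannot be told apart. With AF libraries 2, 4 and 5 only, the fit of Tbx5 in AF over SF cells called 308 of the 641 regions, against 340 with all 4 Tbx5 libraries.

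Which regions are members depends on the settings, and most of all on the choice of scale. CPM divides by the reads that fall in the 30815 regions, so a strong signal in some regions lowers the CPM of the rest, and the trimmed-mean (TMM) scaling of the summed groups over the summed input moved every ChIP group up, by 0.69 (Tbx5, AF cells), 0.90 (Tbx5, SF cells), 0.41 (Gata4, AF), 0.99 (Mef2c, AF), 0.61 (Gata4, SF) and 1.69 (Mef2c, SF) on the log2 scale. Under that scaling the same rule gave 249 regions, of which 86 were among the 641 (13.4% of the 641). All 641 kept Tbx5 enrichment in AF cells, but 401 (62.6%) were also bound by Tbx5 alone, 262 (40.9%) by Gata4 and 181 (28.2%) by Mef2c in AF cells. With TMM the median Tbx5 enrichment of the 641 was 1.53 in AF cells and 0.82 with Tbx5 alone.

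Among the 7253 regions bound by Tbx5 in AF cells, 1946 were not bound by Tbx5 alone and 5307 were. Of the 1946, 641 carried Tbx5 only (32.9%, Clopper-Pearson 95% interval 30.9 to 35.1%, counting error only), 709 carried Gata4 too (36.4%), 284 Mef2c too (14.6%) and 312 both (16.0%). Of the 5307 that Tbx5 also bound alone, 3680 carried Tbx5 only (69.3%), 994 Gata4 too (18.7%), 347 Mef2c too (6.54%) and 286 both (5.39%). The 3680 are called kept Tbx5-only regions and serve as the nearest comparison, since they passed the same 3 limits in AF cells and differ in the limit on Tbx5 alone.

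The gained Tbx5-only regions had a median Tbx5 enrichment of 0.88 in AF cells and of 0.02 with Tbx5 alone. The kept Tbx5-only regions had medians of 1.09 in AF cells and 1.38 alone, and all 30815 regions -0.67 and -0.86. As read densities, the median over the gained regions was 65.2 CPM for Tbx5 in AF cells and 30.5 CPM for Tbx5 alone, beside an input of 31.5 CPM. With Tbx5 alone 323 of 641 were above the input on this scale and the rest at or below it, and with TMM scaling the median enrichment of Tbx5 alone was 0.82 in place of 0.02. The difference in enrichment (AF minus SF) had a median of 0.97 and ran from 0.07 up to 2.94. It was 1 or more in 316 regions (49.3%, against 11.2% of all regions) and 2 or more in 41 (6.40%, against 1.08% of all regions), which the rule favours by construction. At the low end the AF and SF values lay on either side of the limit with little between them.

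**Figure D1:**
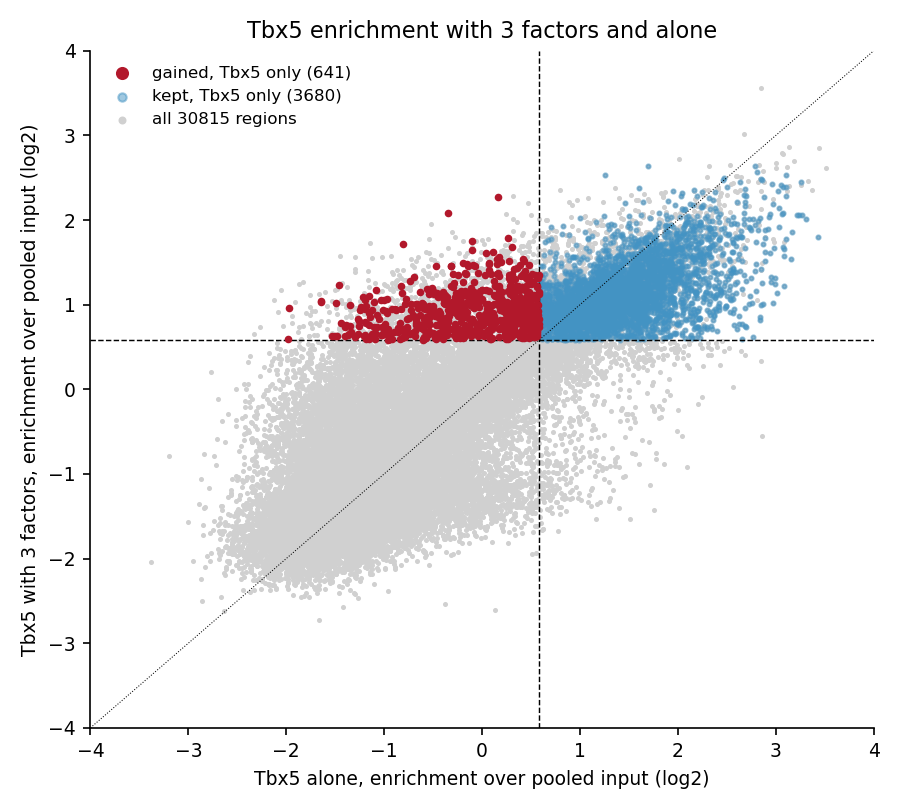
Tbx5 enrichment over pooled input (log2) in cells given all 3 factors (vertical axis) and in cells given Tbx5 alone (horizontal axis), 1 point per region. Dashed lines mark the 1.5-fold limit and the dotted line equal values. The 641 gained Tbx5-only regions fill the upper left area down to the limit, and the 3680 kept regions lie to the right of it.

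Many regions lay close to a limit. The enrichment was within 0.2 of the limit for Tbx5 in AF cells in 214 regions, for Tbx5 alone in 152, for Gata4 in AF cells in 154 and for Mef2c in AF cells in 41. Those clear of all 4 limits by more than 0.2 numbered 223 (34.8%). For Tbx5 in AF cells, the member nearest the limit (chr15:99788684-99789136) had an enrichment of 0.5854 with 122 CPM, and the nearest region below it (chr8:34170948-34171192) 0.5846 with 56.7 CPM. For Tbx5 alone, the nearest member was chr5:121641368-121641822 at 0.5832, and the nearest region above the limit chr8:111227963-111228179 at 0.5858. For Gata4 in AF cells the pair was chr12:113922470-113922850 at 0.5848 and chr7:149769809-149770125 at 0.5855. For Mef2c in AF cells it was chr9:55979702-55979939 at 0.5808 and chr13:43211727-43211938 at 0.5866. Coordinates are those of build mm9 as the files give them, no gene is assigned to any region, and base sequences are not used here.

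By library, the median over the gained regions was 77.6, 65.7, 51.2 and 66.3 CPM in Tbx5 libraries 2, 3, 4 and 5 of the AF cells, and 35.0, 23.9 and 28.2 CPM in Tbx5 libraries 1, 2 and 3 of the SF cells. The groups did not overlap in these medians, and library 4 was the lowest of the AF cells. The same regions took 3.88 to 5.59% of the reads in the AF Tbx5 libraries, 1.89 to 2.51% in the SF Tbx5 libraries, 2.10 to 2.31% in the AF inputs and 2.31 to 2.65% in the SF inputs. Median input density was 28.7 to 32.1 CPM in the 6 AF inputs, the same range as over all regions, and 31.3, 32.0 and 41.0 CPM in the SF inputs of Gata4, Mef2c and Tbx5 cells. The Tbx5 input, with 97474 reads the shallowest library, was the highest.

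**Figure D2:**
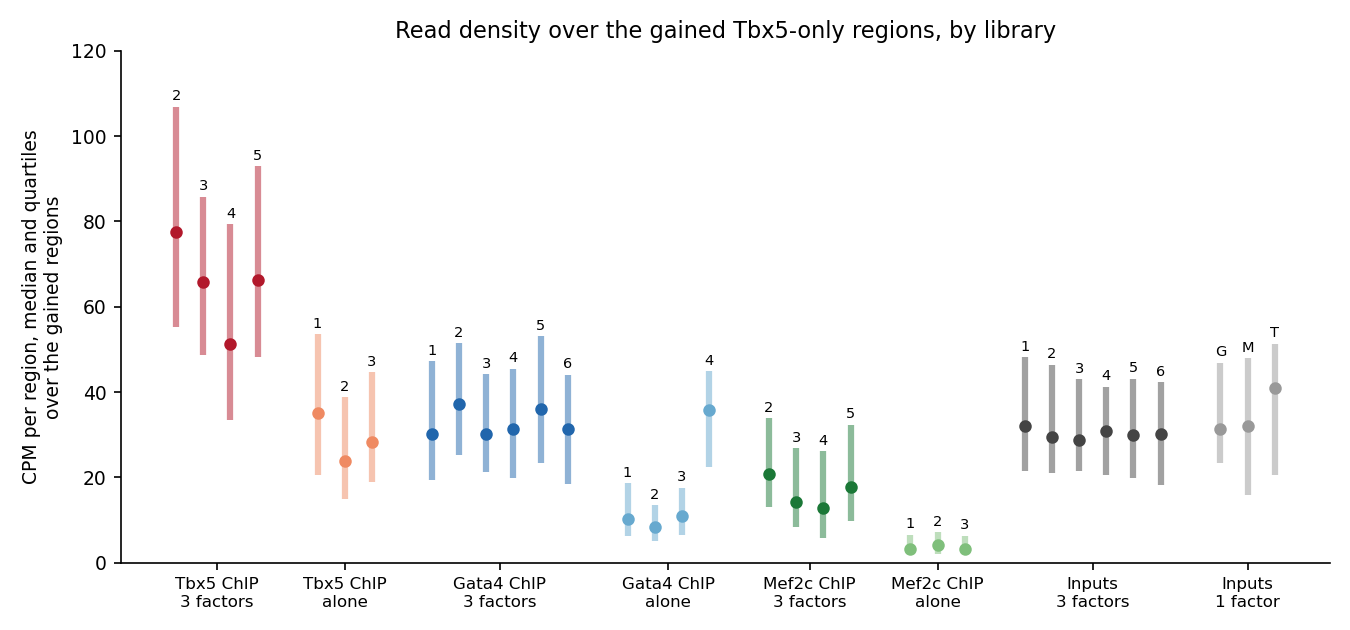
CPM over the 641 gained Tbx5-only regions in each of the 33 libraries: points are medians, bars run between the quartiles, and digits are library numbers (G, M and T mark the inputs of SF cells given Gata4, Mef2c and Tbx5). The 4 Tbx5 libraries with all 3 factors have medians of 51.2 to 77.6 CPM, above every other library, and Gata4 alone number 4 (35.9 CPM) lies near the inputs.

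Region by region the libraries agreed less. Every AF Tbx5 library was above every SF Tbx5 library in 351 of the 641 regions (54.8%, against 14.8% of all regions), and the groups overlapped in 290. Every AF Tbx5 library was above every input library in 159 (24.8%, against 12.0% of all regions). Taken singly against the pooled input, all 4 AF Tbx5 libraries passed the 1.5-fold limit in 185 regions (28.9%), 3 did in 314, 2 in 125 and 1 in 17. All 4 passed in 70.3% of kept and 13.9% of all regions, and 3 in 20.9% of kept and 6.50% of all regions. In edgeR's quasi-likelihood test of Tbx5 in AF over SF cells, 635 of the 641 passed the filter on low counts, 340 were higher and 0 lower at a Benjamini-Hochberg adjusted p under 0.05 (18.8% of all 16395 regions tested were higher and 14.9% lower). The median log2 fold change was 1.06 (quartiles 0.59 and 1.60). Without SF Tbx5 library 2 or 3 the count was 221 or 220. The rule used this contrast, so the count is a description.

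Which AF library was low or high differed between gained and kept regions. Tbx5 library 4 was the lowest of the 4 in 352 gained regions (54.9%), against 15.1% of kept regions and 34.9% of all regions. It was the highest in 19.0% of gained regions, against 44.0% of kept regions and 26.1% of all. Library 2 went the other way, as the highest in 44.9% of gained and 19.3% of kept regions and the lowest in 9.67% of gained and 41.0% of kept regions. Library 4 held 956987 reads and library 2 held 580261, the fewest of the 4. In 69 gained regions library 4 was below the pooled input while the other 3 passed the limit, against 11 of the 3680 kept regions. The SD of log2(CPM + 5) over the 4 libraries had a median of 0.38 in gained regions, 0.25 in kept regions and 0.35 in all regions.

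The Gata4 and Mef2c libraries numbered 4 were also often the lowest. Among libraries 2 to 5 of the AF cells, number 4 was the lowest for Gata4 in 39.8% of gained regions, 33.6% of kept and 31.4% of all regions, and for Mef2c in 48.4%, 35.0% and 37.2%. Number 4 was the lowest for all 3 factors at once in 144 gained regions (22.5%), 141 kept regions (3.83%) and 3444 of all regions (11.2%). What distinguishes the cells of number 4 was not tested, and these shares come with no test because the rule read the same libraries. Without Tbx5 library 4 the rule gave 703 regions, of which 603 were among the 641, and without library 2 it gave 615, of which 593 were.

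**Figure D3:**
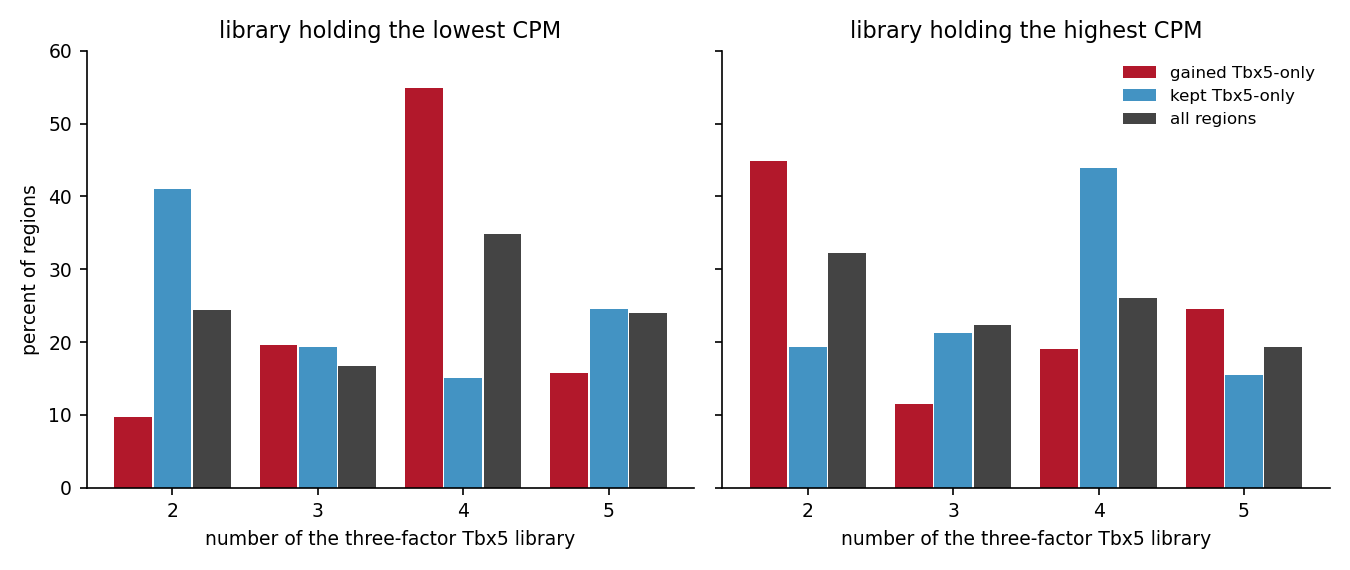
Percent of regions in which each of the 4 Tbx5 libraries of the cells with all 3 factors held the lowest (left) or the highest (right) CPM, for gained and kept Tbx5-only regions and all regions. Number 4 was lowest in 54.9% of gained but 15.1% of kept regions, and highest in 19.0% of gained but 44.0% of kept regions.

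The gained region with the highest Tbx5 enrichment in AF cells was chr17:32636289-32636510 (222 bp), at 2.27. It had 284, 162, 47.0 and 76.1 CPM in AF Tbx5 libraries 2 to 5, against 37.1, 5.97 and 23.5 CPM in SF Tbx5 libraries 1 to 3 and 7.2 CPM (lowest), 20.5 CPM (median) and 39.9 CPM (highest) in the 9 inputs. All 4 AF libraries were above all SF libraries, library 2 was the highest and library 4 the lowest. Gata4 averaged 22.4 ± 3.6 CPM (SD, n = 5) and Mef2c 9.0 ± 1.6 CPM (SD, n = 4) in AF cells, near and below the input. The log2 fold change of Tbx5 in AF over SF cells was 2.52 ± 0.73 (SE).

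The next was chr9:108202058-108202261 (204 bp), with 162, 82.6, 35.5 and 130 CPM in AF Tbx5 libraries 2 to 5, against 22.7, 11.9 and 7.06 CPM in SF Tbx5 libraries and 8.0, 19.9 and 33.7 CPM as the lowest, median and highest input. Here too all AF libraries lay above all SF libraries and all inputs. Library 4 was the lowest for Tbx5, and also for Gata4, at 8.52 CPM against 26.5 to 34.7 CPM in Gata4 libraries 2, 3 and 5. The third, chr7:88740088-88740420 (333 bp), differed in being even across libraries: 121, 87.9, 114 and 116 CPM in AF Tbx5 libraries 2 to 5, against 39.1, 14.9 and 44.7 CPM in SF Tbx5 libraries and 0, 26.8 and 42.3 CPM as the lowest, median and highest input. It averaged 110 ± 15 CPM in AF cells (SD, n = 4) and 32.9 ± 15.8 CPM in SF cells (SD, n = 3). Its difference in enrichment, 1.53, was 0.84 when each group was set against the inputs of its own cells.

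The next 3 repeated the order of the libraries. At chr15:93527905-93528135 (231 bp) AF Tbx5 libraries 2 to 5 had 248, 117, 72.1 and 96.4 CPM, against 30.9, 29.9 and 25.9 CPM in SF Tbx5 libraries. At chr4:107022076-107022593 (518 bp) they had 229, 153, 82.6 and 197 CPM, against 26.8, 26.9 and 18.8 CPM. At chr11:115369374-115369684 (311 bp) they had 222, 115.5, 59.6 and 151 CPM, against 59.7, 44.8 and 35.3 CPM. Library 2 was the highest and library 4 the lowest in all 3 regions, and at chr11:115369374-115369684 library 4 lay just under the highest SF library. The chr4 region also came close to the Gata4 limit in AF cells (enrichment 0.52).

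The last pair of the 8 rested on part of the libraries. At chr6:6912335-6912624 (290 bp) the AF Tbx5 libraries had 75.8, 45.6, 5.22 and 4.89 CPM, against 0, 5.97 and 7.06 CPM in SF Tbx5 libraries. Only 5 and 7 reads stood behind AF libraries 4 and 5, the pooled input was low (a median of 3.6 CPM over the 9 libraries), and the region failed the filter on low counts. At chr1:94779954-94780270 (317 bp) they had 186, 155, 16.7 and 106 CPM, against 41.2, 29.9 and 30.6 CPM in SF Tbx5 libraries. Library 4 lay below all 3 SF libraries there, the groups overlapped, and the log2 fold change of 1.70 ± 0.68 (SE) had an edgeR adjusted p of 0.079. Number 4 was also the lowest there for Gata4 (14.2 CPM) and Mef2c (2.33 CPM) in AF cells. The Gata4 enrichment of this region in AF cells, 0.5776, lay just under the limit.

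Other regions combined a modest enrichment in AF cells with a Tbx5-alone signal far under the input. Of these, chr8:63860719-63861059 (341 bp) had the widest difference, 2.94. Its AF Tbx5 libraries 2 to 5 had 131, 115.5, 26.1 and 146 CPM, against 12.4, 5.97 and 9.42 CPM in SF Tbx5 libraries and inputs of 25.1, 55.9 and 67.5 CPM as lowest, median and highest. AF libraries were above all SF libraries, but library 4 lay at the bottom of the input range. Mef2c in AF cells reached 91.4, 48.7, 15.1 and 71.9 CPM in libraries 2 to 5, so it overlapped the Tbx5 values.

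At chr14:21185781-21186143 (363 bp) the AF Tbx5 libraries had 167, 104, 41.8 and 124 CPM, against 16.5, 5.97 and 11.8 CPM in SF Tbx5 libraries, with a log2 fold change of 3.12 ± 0.52 (SE). At chr15:58105947-58106150 (204 bp) they had 82.7, 59.3, 40.8 and 72.6 CPM, against 2.06, 5.97 and 11.8 CPM, with a log2 fold change of 3.22 ± 0.49. Library 4 was the lowest AF library in both regions, above every SF library. The difference in enrichment at chr15:58105947-58106150, 2.58, was 1.90 against the inputs of each group's own cells. Its Tbx5 enrichment in AF cells, 0.5902, was barely over the limit, and its highest input had 56.4 CPM, above Tbx5 library 4. Mef2c in AF cells had 57.4, 32.7, 30.8 and 64.8 CPM there and overlapped Tbx5 (log2 fold change of Tbx5 over Mef2c 0.27 ± 0.31, SE, edgeR adjusted p 0.449). Another gained region, noted after its values were seen, lies 5829 bp away at chr15:58099761-58100117 and had 128 CPM with all 3 factors and 27.3 CPM with Tbx5 alone over the summed libraries.

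A pair on chromosome 8 did not follow that order. At chr8:93472371-93472939 (569 bp) the AF Tbx5 libraries had 165, 146, 206 and 195 CPM, against 37.1, 23.9 and 9.42 CPM in SF Tbx5 libraries, a log2 fold change of 2.84 ± 0.31 (SE). Library 4 was the highest there. The difference in enrichment, 2.68, was 1.77 against the inputs of each group's own cells. Gata4 (110 ± 18 CPM, SD, n = 5) and Mef2c (126 ± 16 CPM, SD, n = 4) in AF cells were also dense in that region, under their limits because its inputs were high (median 87.6 CPM). At chr8:107135488-107135877 (390 bp) the AF Tbx5 libraries had 116, 79.5, 112 and 110 CPM, against 8.24, 23.9 and 7.06 CPM, a log2 fold change of 3.02 ± 0.37. The difference in enrichment, 2.67, was 1.87 against the inputs of each group's own cells. Libraries 2, 4 and 5 lay within 6 CPM of one another and library 3 below them.

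**Figure D4:**
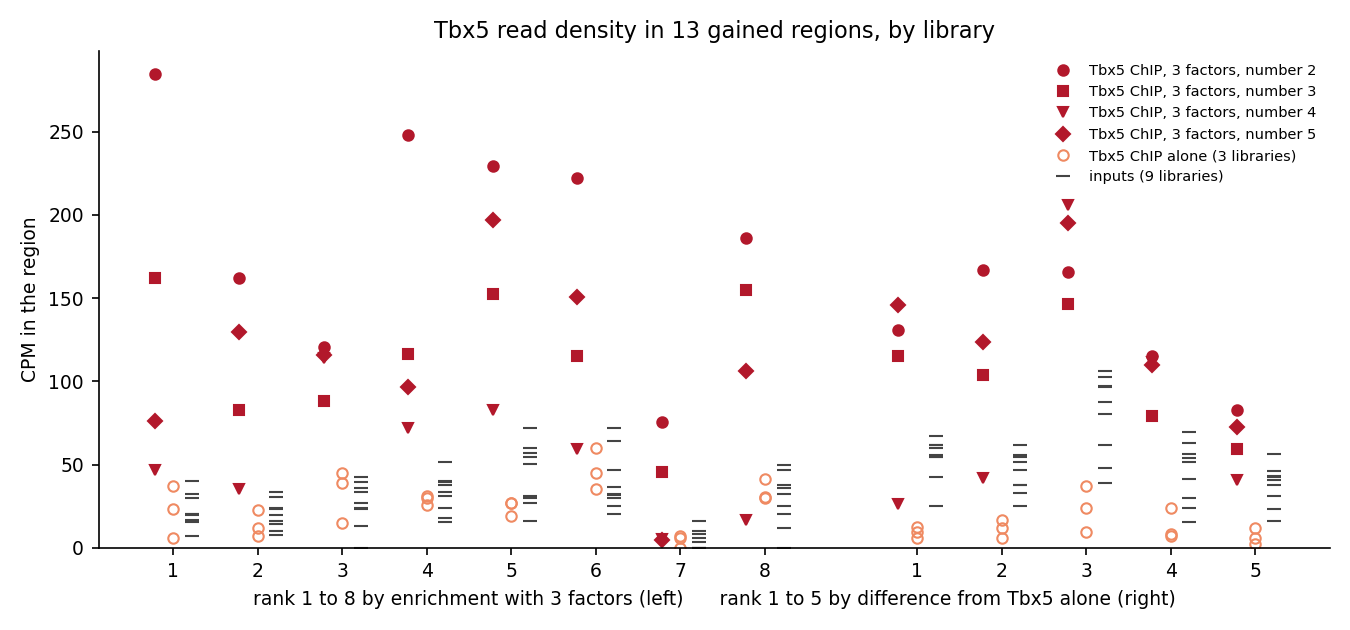
CPM in each library at the 8 gained regions with the highest Tbx5 enrichment in cells with all 3 factors (left block) and 5 further regions with the widest difference from Tbx5 alone (right block), in the order of the text except that the right block follows rank. Filled symbols are the 4 Tbx5 libraries with all 3 factors, open circles the 3 with Tbx5 alone and dashes the 9 inputs; number 4 (triangles) is the lowest filled symbol in most regions.

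Gata4 and Mef2c in AF cells were below their limits by the rule, but not equally far. Gata4 had a median enrichment of 0.11 in the gained regions, against -0.26 in kept regions and -0.38 in all regions, and was above 0 in 369 gained regions (57.6%), 30.3% of kept and 38.5% of all regions. Mef2c had a median of -0.86, against -0.87 in kept and -0.91 in all regions, and was above 0 in 122 gained regions (19.0%), 6.25% of kept and 31.8% of all regions. In edgeR fits within AF cells, Tbx5 was higher than Gata4 in 547 of 636 gained regions tested (26.6% of all regions) and lower in 0 (23.4% of all regions). The log2 fold changes had a median of 1.14 in gained and 1.80 in kept regions. Tbx5 was higher than Mef2c in 538 of 633 (35.1% of all regions) and lower in 0 (36.7% of all regions), with medians of 1.85 in gained and 2.14 in kept regions. The rule used these contrasts too, and the factors were read with different antibodies (goat polyclonals for Tbx5 and Gata4, a rabbit monoclonal for Mef2c), whose part in these values was not tested.

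The SF libraries of Gata4 and Mef2c had no part in the rule, apart from the inputs they are set against. Gata4 alone reached the limit in 3 gained regions (0.468%, against 21.3% of all regions), and Mef2c alone in 2 (0.312%, against 19.1% of all regions). Among kept regions, Gata4 alone reached it in 95 (2.58%) and Mef2c alone in 10 (0.272%). Kept regions are the nearer comparison, since all regions include those bound by Gata4 or Mef2c in AF cells, which the rule leaves out. The median enrichment of Gata4 alone was -1.26 in gained regions, -0.58 in kept regions, -1.06 in the 10106 regions enriched in no ChIP group and -0.59 in all regions. For Mef2c alone the medians were -2.0, -1.45, -1.84 and -1.40. The medians of Gata4 and of Mef2c alone were thus lower in the gained regions than in the regions enriched in no group, on the CPM scale. With TMM scaling the medians were -0.84 for Gata4 alone in gained regions (all regions -0.11) and -1.03 for Mef2c alone (all regions -0.20).

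**Figure D5:**
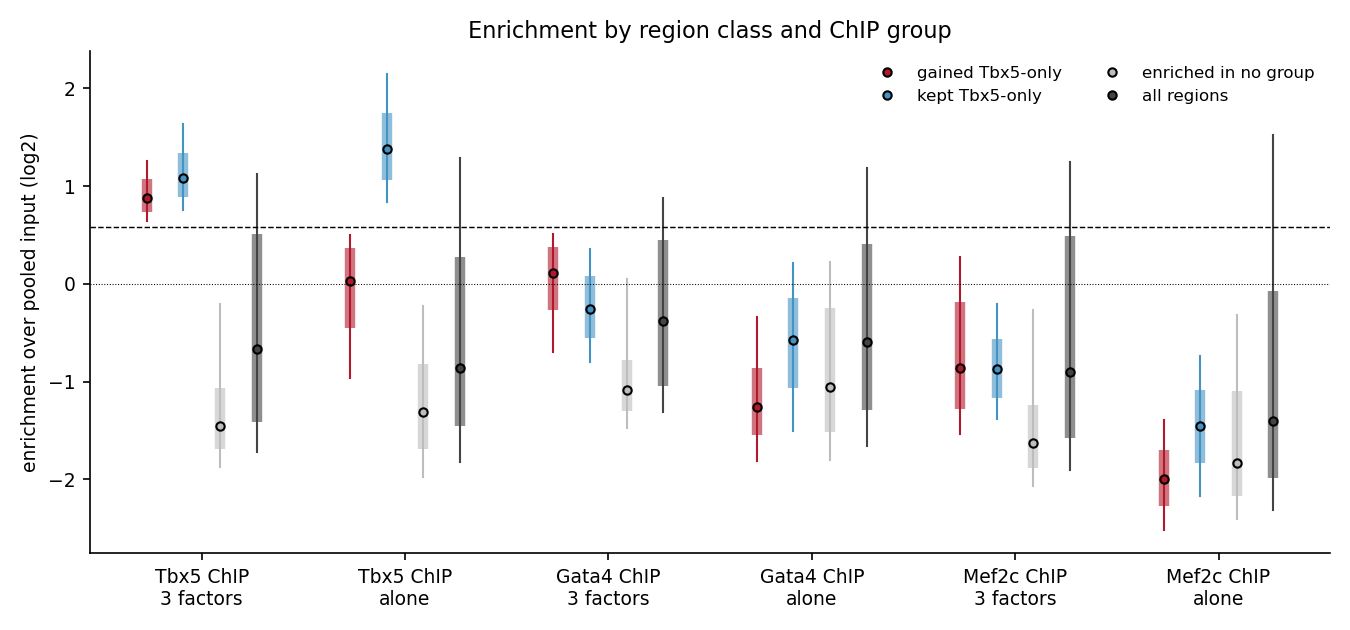
Enrichment over pooled input (log2) of each ChIP group in gained Tbx5-only, kept Tbx5-only, unenriched and all regions: points are medians, thick bars run between the quartiles and thin lines between the 10th and 90th percentiles. The dashed line is the 1.5-fold limit. Gained regions have medians of 0.88 (Tbx5, 3 factors), 0.02 (Tbx5 alone), 0.11 (Gata4, 3 factors), -1.26 (Gata4 alone), -0.86 (Mef2c, 3 factors) and -2.0 (Mef2c alone).

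In tests over the inputs, gained regions were called lower more often than higher for both factors. For Mef2c alone over all inputs, edgeR's quasi-likelihood test called 445 of the 577 gained regions tested lower (77.1%, against 39.7% of all regions) and 13 higher (against 33.6% of all regions). The median log2 fold change was -1.55, against -0.43 over all regions. Of kept regions 36.6% were lower, and of regions enriched in no group 58.0%. Mef2c alone had a median of 3.89 CPM in the gained regions, against an input of 31.5 CPM. Gained regions thus passed the filter on low counts largely through the inputs, and the share called lower depends on that filter. Without it 443 of all 641 were lower and 14 higher, with the shares of all regions not given here. Without AF inputs 2, 4 and 5, which count as 1 sample, fewer regions passed the filter. Then 294 of 309 gained regions were lower (95.1%, against 45.6% of all regions). For Gata4 alone over inputs, 135 of 390 gained regions tested were lower (34.6%, against 12.8% of all regions) and 1 higher (against 23.7%), with a median of -0.94 against -0.05. Of kept regions 12.2% were lower, and of regions enriched in no group 17.6%. Without the filter 80 of all 641 were lower and 3 higher for Gata4 alone, again with the shares of all regions not given here. Without SF Gata4 library 4, 344 of 570 were lower (60.4%, against 30.5% of all regions) and 11 higher (against 30.7%). Without Gata4 library 1, 2 or 3 fewer regions passed the filter, and 44, 37 and 48 gained regions were lower (21.2, 17.6 and 22.9% of those tested, against 5.19, 5.21 and 6.74% of all regions). Without AF inputs 1 and 3, inputs 2, 4 and 5, or input 6, 44 of 120, 51 of 119 and 90 of 515 gained regions tested were lower. Without the Gata4 input 83 of 505 were lower, and in these 7 fits 0 gained regions were higher. For the fits without inputs the shares of all regions are not given here. With library totals in place of TMM, the counts were 204 lower and 0 higher for Gata4 alone (20.2% lower and 14.6% higher of all regions), and 98.4% of the regions tested lower and 2 higher for Mef2c alone (67.5% and 21.3% of all regions). The inputs are shared with the rule, which asked for a high ratio of Tbx5 to input.

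Gata4 alone over Mef2c alone used no library of the rule. Of the 163 gained regions that passed the filter on low counts, edgeR called 93 higher for Gata4 (57.1%, against 45.2% of all regions) and 11 lower (6.75%, against 37.9% of all regions). The median log2 fold change was 1.18 in gained regions and 0.63 over all 21509 tested. Over the summed libraries, Gata4 alone had a median of 10.5 CPM in the gained regions (90th percentile 26.8) and Mef2c alone 3.89 CPM (10.3). The other gained regions were too thinly covered to pass, and the 163 passed mainly through Gata4, the factor then called higher. The shares called higher and lower among the 163 therefore depend on the filter. Without the filter, 78 of all 641 were higher (12.2%, against 29.0%) and 17 lower (2.65%, against 29.4%), with medians of 0.79 and 0.41. Without SF Gata4 library 4, 65 of 141 were higher (46.1%, against 45.7% of all regions) and 15 lower (10.6%, against 41.2%). Without Mef2c library 1, 2 or 3, 51, 44 and 54 were higher (21.4, 18.4 and 22.5%, against 35.0, 34.7 and 34.8% of all regions), and with DESeq2 52 were (31.9%, against 38.8%). The share that was higher was therefore above that of all regions in some fits and below it in others. The share that was lower was under that of all regions in each of these fits, at 4.62, 5.02 and 5.00% against 35.8, 35.5 and 35.6% without Mef2c library 1, 2 or 3 and 7.98% against 39.0% with DESeq2. A low share was not particular to gained regions. Of kept regions 3.78% were lower in the main fit and 2.69% without the filter. With library totals in place of TMM, the log2 fold changes of all regions had a median of 1.57, and 137 gained regions were higher and 5 lower (55.9% and 28.9% of all regions).

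The clearest gained region for Gata4 over Mef2c was chr5:121641368-121641822 (455 bp). It had 66.2, 66.0, 83.6 and 62.8 CPM in SF Gata4 libraries 1 to 4, against 5.44, 12.4 and 8.50 CPM in SF Mef2c libraries 1 to 3. The groups did not overlap, and the log2 fold change was 2.14 ± 0.45 (SE, edgeR adjusted p 0.000276). Its inputs ran between 39.1 and 72.2 CPM, so Gata4 alone was at most slightly above them (log2 fold change over inputs 0.51 ± 0.35, adjusted p 0.239) and Mef2c alone below. This is also the member closest to the limit for Tbx5 alone, with 121, 102, 109 and 108 CPM in AF Tbx5 libraries, against 94.8, 68.7 and 104 CPM in SF Tbx5 libraries, which overlap.

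At chr8:11632379-11632804 (426 bp) SF Gata4 libraries had 82.8, 47.4, 35.2 and 67.3 CPM, against 9.80, 9.30 and 10.6 CPM in SF Mef2c libraries (log2 fold change 1.69 ± 0.45, edgeR adjusted p 0.00203). At chr15:3929404-3929912 (509 bp) they had 137, 110, 55.0 and 76.3 CPM, against 26.1, 26.9 and 10.6 CPM (1.33 ± 0.45, adjusted p 0.0112). At chr2:167906283-167906865 (583 bp) they had 84.9, 89.7, 156 and 40.4 CPM, against 18.5, 26.9 and 23.4 CPM (1.21 ± 0.45, adjusted p 0.0181). No Gata4 library fell under a Mef2c library in these 3 regions, but the call of the last pair hung on the setting. The chr15 region lost it without any of the Mef2c libraries or without the filter on low counts (adjusted p 0.058 to 0.208 in these 4 fits and 8.2e-05 to 0.045 in the other alternatives). The chr2 region lost it in these 4 fits, with DESeq2 and without Gata4 library 3 (0.073 to 0.193, against 8.8e-05 to 0.023 in the other alternatives). The chr15 region was 1 of the 3 in which Gata4 alone reached the limit (enrichment 0.72). The other two were chr13:73741356-73741672 (0.90) and chr7:91490931-91491164 (0.84), where SF Gata4 library 4 had 8.98 and 4.49 CPM and libraries 1 to 3 had 35.5 to 59.2 CPM (chosen after their values were seen, to complete the count).

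The regions with Mef2c over Gata4 were few. At chr7:140250187-140250551 (365 bp) SF Gata4 libraries had 4.14, 8.46, 8.80 and 13.5 CPM, against 59.9, 51.6 and 56.3 CPM in SF Mef2c libraries. The groups lay far apart, with a log2 fold change of -3.57 ± 0.48 (SE, edgeR adjusted p 2.06e-06), and Mef2c alone was above the inputs by 2.43 ± 0.28 (adjusted p 7.67e-14). That value depended on the TMM scaling and on AF inputs 2, 4 and 5, which count as 1 sample. It was 0.94 with library totals and 1.45 without these inputs (adjusted p 6.97e-15 to 0.00186 over all alternatives). Over all regions the median was -0.43 with TMM and -1.91 with library totals. In AF cells Mef2c had 26.1, 44.5, 43.6 and 41.2 CPM there and an enrichment of 0.52, just under the limit, while Tbx5 had 72.4, 38.1, 66.9 and 34.9 CPM and overlapped it.

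At chr14:66941770-66942363 (594 bp) SF Gata4 libraries had 35.2, 16.9, 28.6 and 89.8 CPM, against 154, 133 and 120 CPM in SF Mef2c libraries (log2 fold change -2.66 ± 0.43, edgeR adjusted p 1.76e-05). Library 4 of Gata4 was the highest of its group, and Mef2c alone was above the inputs by 2.28 ± 0.19 (adjusted p 5.86e-22). It was above them by 0.79 with library totals and by 1.37 without AF inputs 2, 4 and 5 (adjusted p 3.26e-26 to 9.53e-05 over all alternatives). At chr9:75371346-75371834 (489 bp) SF Gata4 libraries had 8.28, 18.6, 26.4 and 58.4 CPM, against 87.1, 65.1 and 90.3 CPM in SF Mef2c libraries (-2.52 ± 0.48, adjusted p 0.000105). The first pair, on chromosomes 7 and 14, are the 2 gained regions in which Mef2c alone reached the limit, at enrichments of 0.91 and 0.82. Mef2c in AF cells was 0.52 and 0.56 in them, so they counted as Tbx5-only by a small margin.

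No single gained region was called different between the inputs of AF and SF cells. As a set, the gained regions took 2.10 to 2.31% of the reads in the 6 AF inputs and 2.31 to 2.65% in the 3 SF inputs, a difference that was not tested. Few regions had enough input reads to be tested, 35 gained regions of 853 in all, and edgeR called 0 of the 35 (0.0% of all tested), with 4 at an unadjusted p under 0.05. Without the filter it called 0 of 641, with 44 at an unadjusted p under 0.05, and DESeq2 called 0 of the 35. The median log2 fold change of AF over SF inputs was 0.07 over the 35 gained regions and 0.04 over all regions tested, and without the filter -0.16 over the 641 gained regions and 0.04 over all regions.

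Gained and kept regions were of similar width. The median width of gained regions was 272 bp (201 to 861 bp), against 275 bp in kept regions, 234 bp in all regions, 389.5 bp in the 598 regions bound by all 3 factors and 202 bp in regions enriched in no group. Widths of 210 bp or less made up 28.2% of gained regions, 25.4% of kept and 40.4% of all regions, and widths of 500 bp or more 8.42%, 7.85% and 5.03%. The way the widths were set is not given in the sources used here.

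In position, the nearest other region lay a median of 8808 bp from a gained region, 8063.5 bp from a kept region and 12844 bp from any region. A neighbour within 1000 bp was found for 16.2% of gained regions, 24.1% of kept and 14.4% of all. A kept Tbx5-only region lay within 10000 bp of 82 gained regions (12.8%), against 20.8% of kept and 9.09% of all regions. Gained regions had another gained region within 10000 bp in 26 cases (4.06%, against 1.78% of all regions). The closest pair, likewise noted after its values were seen, was chr17:15560455-15560738 and chr17:15560815-15561094, with 76 bp between them. With all 3 factors it had 75.4 and 54.4 CPM, and with Tbx5 alone 41.0 and 20.9 CPM, over the summed Tbx5 libraries.

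By chromosome, gained regions made up 1.27% (chromosome 12) to 3.03% (chromosome 14, 38 of 1253, exact 95% interval 2.15 to 4.14%) of the regions of an autosome, against 2.08% in all. On chromosome X there were 5 of 611 (0.818%, interval 0.266 to 1.90%) and on chromosome Y 0 of 5. Of the Tbx5-only regions of AF cells, the gained ones were 9.09% on chromosome X and 23.6% on chromosome 14, the lowest and highest shares among chromosomes with any. No test was made between chromosomes, and the libraries differed in their chromosome Y reads as given above.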

How the data were processed

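The submitters' processing notes name FastQC, Bowtie2 2.2.4, featureCounts and build mm9. The alignment settings, the treatment of duplicates and the origin of the regions are unstated there. If the regions came from these libraries, counts of enriched regions depend on that choice. The authors deposited 1 table of whole-number read counts per region for 33 libraries, with no normalization. The member regions and the tests were chosen with earlier results of these data known.

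From those counts, CPM and enrichments were computed in Python 3.11.15 (pseudocount 5 CPM, limit 1.5-fold). SF Gata4 library 4 was left out of the sums. Differences were tested on counts with edgeR 4.0.16 (quasi-likelihood F test, TMM scaling, filter with minimum count 10 and minimum total 15), two-sided, over all regions, with Benjamini-Hochberg adjustment and a threshold of 0.05. DESeq2 1.42.0 was an alternative. The fits were tested on simulated data. AF Gata4 libraries 1 and 6, AF inputs 1 and 3, and AF inputs 2, 4 and 5 agree within sampling noise (chi-square test of their counts) and were each counted as 1 sample, which left 29 samples. Fits without such a sample left out all of its libraries. Replicate numbers were taken as pairing the AF libraries. Deviations from the group mean correlated between same-numbered Tbx5 and Gata4 libraries (r 0.11 to 0.45) and Tbx5 and Mef2c libraries (0.23 to 0.57). Tbx5 number 3 was an exception, as its deviations correlated best with those of Gata4 number 1 (r with Gata4 number 3 was 0.11). Intervals are exact binomial and cover counting error only.

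Named regions are the 8 members with the highest Tbx5 enrichment in AF cells, the 5 others with the widest difference from Tbx5 alone, the pair beside each limit, and up to 4 members per direction among those called between Gata4 and Mef2c alone with libraries that do not overlap and a mean count above the median. Chromosome 18 was not used for names. Gene assignment, motifs and base sequences were not analysed here.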

Additional observations from a re-analysis of the deposited data

Results flagged for a closer look

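Of 27 sets of values examined for a sample far from the others, 4 had one by Dixon's gap test, where chance gives about 1 in 20. At chr8:107135488-107135877, Tbx5 library 3 of the AF cells was the lowest of 4, at 79.5 CPM. At chr5:121641368-121641822, Gata4 library 3 of the SF cells was the highest of 4, at 83.6 CPM. The median CPM over the gained regions was highest in library 4 of Gata4 in SF cells, at 35.9, and this library is left out of the sums above. Among the inputs the median over the gained regions was highest in the Tbx5 input of the SF cells, at 41.0 CPM, a library of 97474 reads. What lies behind these values was not tested.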

How the results depend on the processing

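The number of gained regions was 249 under TMM scaling and 573 to 771 with a replicate left out. A pseudocount of 1 or 10, a limit of 0.4 or 0.8, inputs matched to the cells, and agreeing libraries counted once gave 596, 710, 457, 804, 741 and 628. Of the 641 gained regions, 546, 572, 354, 406, 481 and 536 remained in these sets. The 3 regions enriched for Gata4 alone became 5 with a pseudocount of 1, 6 with a limit of 0.4, 10 with matched inputs, 17 with TMM and 3 to 5 with a replicate left out. The 2 enriched for Mef2c alone became 14 with TMM. Calls for Gata4 over Mef2c alone (104) became 65 with DESeq2 and 56 to 122 with a replicate left out, namely 62, 56 and 66 without Mef2c library 1, 2 or 3. Calls for Gata4 alone over inputs (136) became 83 without the filter and 37 to 355 with a sample left out. They were 355 without Gata4 library 4, and 44, 37 and 48 without Gata4 library 1, 2 or 3. They were 44, 51 and 90 without AF inputs 1 and 3, inputs 2, 4 and 5, or input 6, and 83 without the Gata4 input. Calls for Mef2c alone over inputs (458) were 300 to 473, the lowest without AF inputs 2, 4 and 5. Tbx5 in AF over SF cells (340) gave 220 to 426, with 221 and 220 without SF Tbx5 library 2 or 3. Leaving out a library also changes how many regions pass the filter on low counts. Where not given, the cause was not tested.

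With the replicate block, Tbx5 over Gata4 in AF cells called 604 (547 without it) and Tbx5 over Mef2c 565 (538). The block for Gata4 includes number 3, whose Tbx5 library correlated best with Gata4 number 1. Numbers pair no other groups: deviations of same-numbered Tbx5 libraries of AF and SF cells (r -0.03 and 0.03) and of Gata4 and Mef2c alone (r -0.01 to 0.00) did not move together, and a replicate block there gave 396 and 77 calls. Fits without a block on the shared numbers only, added after seeing the data, called 502 and 538 within AF cells and 428 and 80 in the others. On AF libraries 2, 4 and 5 only, Tbx5 over Gata4 called 400 and Tbx5 over Mef2c 529. Of the alternatives for named regions, 364 left the value or call as it was, 13 moved it, 10 lost the call and none reversed it. Part of the 364 was fixed in advance. The difference in Tbx5 enrichment (AF minus SF) uses no Gata4 or Mef2c library, and the pooled input cancels in it. Leaving out such a library, or counting agreeing libraries once, could therefore not move that difference.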
